A study of Homo sapiens with 8 samples.

Results

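The endoplasmic reticulum (ER) is where secreted and membrane proteins enter the secretory route, are glycosylated, form disulphide bonds and fold. Proteins that fail to fold are taken back to the cytosol and degraded, and an excess of them sets off the unfolded protein response, whose sensors are IRE1 (gene ERN1), ATF6 and PERK. IRE1 splices XBP1 mRNA and ATF6 is cut by proteases to free its transcription factor part, after which both factors raise genes for chaperones, disulphide isomerases and degradation, while PERK slows translation and favours ATF4. Liver cells carry a heavy secretory load and are a common setting for work on these pathways.

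The genes described here are 36 listed genes of ER folding and the unfolded protein response, of which 35 have a row among the 14526 genes of the RPKM table used here. RPKM is the number of reads of a gene scaled to its length and to the size of the library, so that levels can be compared between genes. Of the 35, 2 are listed under older names, ERO1L and ERO1LB, and have rows as ERO1A and ERO1B, and TXNDC5 has no row. The members comprise 6 sensors and transcription factors, 10 genes of ER-associated degradation, 5 of the glycoprotein folding cycle, 8 of oxidative folding, 4 chaperones and small stress-induced proteins, and 2 subunits of the translocon. The rule that names them uses gene symbols and no measured value, although the list was drawn up with earlier results of these data known.

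The study asked how sodium benzoate (SB), a food preservative and drug that cells convert to benzoyl-CoA, changes histone benzoylation and gene expression. Total RNA was sequenced from 8 cultures of cells labelled HepG2, a human liver carcinoma line, all grown in DMEM with 10% fetal bovine serum. The control group was 4 biological replicates with no SB, and the SB-treated group was 4 biological replicates kept with SB at 10 mM for 24 h. The labels name no genotype change, no vehicle and no other agent in either group. Of 20 genes that mark hepatocytes, 18 have no row in the table, among them ALB, APOB and AFP, while TF stood at 0.192 RPKM in the controls, so the liver identity of the label is not borne out by these markers.

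Reads recovered from the RPKM values of the 14526 genes summed to 36990075 to 44492795 per library in the controls and 37161781 to 44878414 after SB. The members had between 475 and 69045 recovered reads in every library. SDF2L1 had the fewest and CANX the most. The library labelled control replicate 1 stood away from its group. It was outside the range of the other controls for 31 of 35 members, above it for 17 and below it for 14. Over all 14526 genes it was above that range for 5949 and below it for 5995. Values with and without this library are given where it changes a call.

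SB moved these genes in both directions and by small amounts. In bulk RNA fewer cells with a transcript and less of it per cell cannot be told apart. Of the 35 members, 10 rose and 12 fell at an adjusted p below 0.05 (limma on log2(RPKM + 1), Benjamini-Hochberg over all 14526 genes), and 13 passed in neither direction. Over all genes 33.0% rose and 32.6% fell, so the shares of the members, 28.6% and 34.3%, were close to those of the table as a whole and are no result about the members. The 22 members called in either direction were 62.9% of the 35, against 65.6% of all genes. The groups did not overlap for 8 members that were higher after SB and 12 that were lower, against 31.0% and 30.5% of all genes, or 61.5% in either direction. The median log2 fold change was -0.03 for the members and 0.0045 for all genes, and the members ranged from -0.42 for ERP29 to 0.48 for EDEM3. No member changed by 0.5 or more on this scale, a size reached by 1536 of the 14526 genes. That limit depends on the scale. With 0.1 instead of 1 added to RPKM, EDEM1 reached 0.5045 and EDEM3 0.508. With voom on the recovered reads EDEM1, EDEM3 and WFS1 reached 0.5075, 0.5097 and 0.5016. All genes of that size were not counted in these fits.

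**Figure D1:**
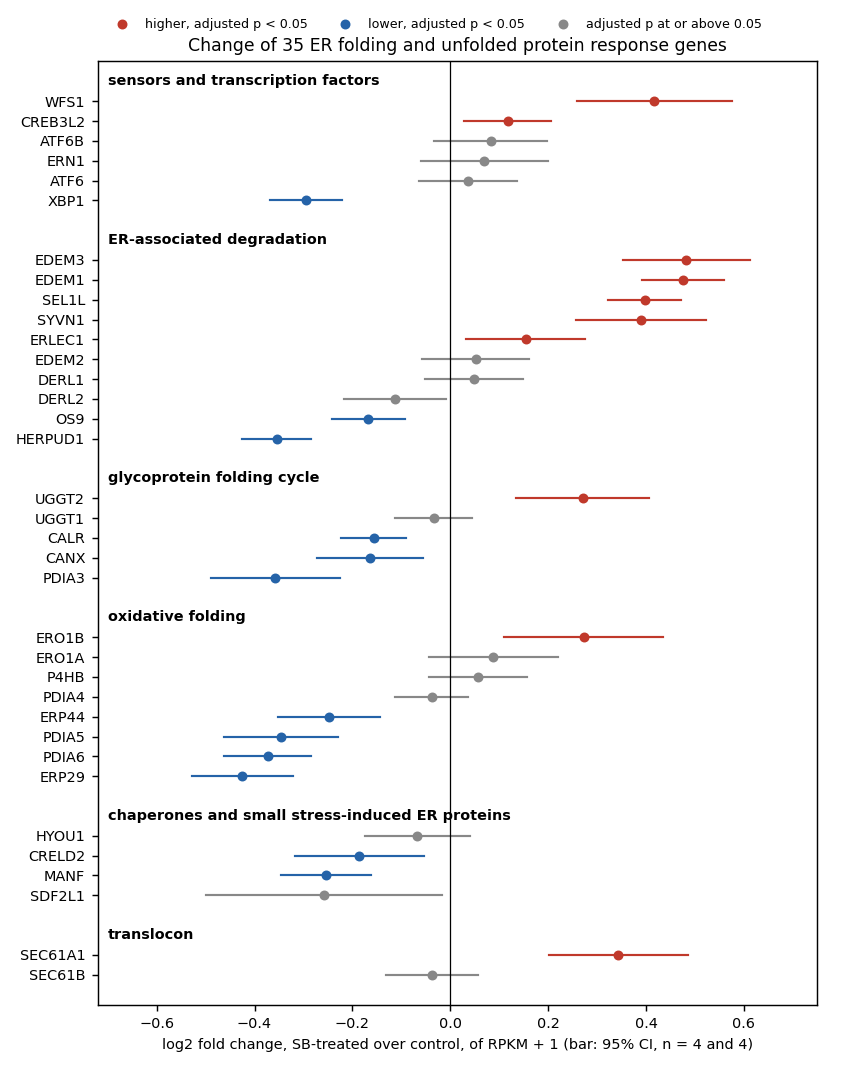
The log2 fold change of RPKM + 1, SB-treated over control, is shown for each of the 35 members with its 95% confidence interval (n = 4 and 4), grouped by role and coloured by the limma call. The degradation genes hold 5 of the 10 members that rose, and the genes of oxidative folding hold 4 of the 12 that fell. With library sizes taken without TMM factors the degradation genes count 7 higher and 1 lower, and oxidative folding 3 higher and 4 lower. Over all genes 33.0% rose and 32.6% fell, and 43.0% and 23.1% without these factors.

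The split between rises and falls depended on how libraries were scaled. The deposited RPKM values use TMM factors. As inferred from the recovered reads, these were 0.957 to 0.969 in the controls and 1.03 to 1.04 after SB. Without these factors the median log2 ratio of all genes was 0.113 instead of 0.0077, and 17 members rose and 8 fell, while 43.0% of all genes rose and 23.1% fell. Every member called in the main comparison kept its direction under this scaling, whereas UGGT1, PDIA4, HYOU1 and SEC61B, none of them called, turned from slightly lower to slightly higher. All changes below are thus relative to the typical gene of the table. Without control replicate 1, 13 members rose and 15 fell, where 37.6% of all genes rose and 37.9% fell, since ATF6, DERL1 and ERO1A then passed as higher and DERL2, HYOU1 and SDF2L1 as lower.

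Some of these genes carry in their promoters the short elements through which ATF6 and XBP1 are known to act. Windows of 300 bases, from 250 before to 50 after a RefSeq transcript start (GRCh38.p14), were searched on both strands for the ER stress response element ERSE (CCAAT, 9 bases, CCACG), for ERSE-II (ATTGG, 1 base, CCACG) and for the core of the unfolded protein response element UPRE (TGACG followed by TGG or TGA). A gene can have several starts and so several windows, some inside its span, as for PDIA6 and CANX, and a match in any of them was counted. A window was matched for 33 of the 35 members, 18.2% of them with more than 1, as had 19.0% of all genes with a window. The match in CANX is a single stretch seen from 3 starts. ERSE was found in 6 members, XBP1, CALR, CANX, PDIA6, ERO1B and CRELD2, which is 18.2% of those with a window against 0.0916% of the 27305 genes with one. ERSE-II was found in 3 members, HERPUD1, HYOU1 and SDF2L1, or 9.09% against 0.0696%. UPRE was found in HYOU1 alone among the members, or 3.03% against 1.44%, and overlaps the farther of its 2 ERSE-II matches. Among the 10651 genes of the table with a window the shares were 0.15% for ERSE, 0.131% for ERSE-II and 1.92% for UPRE. Lists of related ER genes, described below, hold 50 genes with a window. Of these, 2 had ERSE (4%), 0 had ERSE-II and 8 had UPRE (16%).

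The matches below are shown because they belong to members with different responses to SB: XBP1, CALR, PDIA6 and HERPUD1 fell, ERO1B rose, and HYOU1 was not called. Capitals mark the ERSE in the first 4 lines and the ERSE-II in the last 2, and each sequence is read along the strand of its gene. The element lies on the gene's own strand in XBP1, PDIA6 and HERPUD1 and on the other strand, so that it reads from CGTGG, in CALR, ERO1B and HYOU1. The positions are chr22:28800583-28800641 (minus strand) for XBP1, chr19:12938364-12938422 (plus) for CALR, chr2:10812833-10812891 (minus) for PDIA6, chr1:236282163-236282208 (minus) for ERO1B, chr16:56932005-56932055 (plus) for HERPUD1 and chr11:119057360-119057410 (minus) for HYOU1.
XBP1: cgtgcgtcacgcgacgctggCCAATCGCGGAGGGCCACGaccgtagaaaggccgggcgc
CALR: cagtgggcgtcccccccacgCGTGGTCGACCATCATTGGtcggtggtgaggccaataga
PDIA6: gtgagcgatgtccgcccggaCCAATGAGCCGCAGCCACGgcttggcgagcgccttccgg
ERO1B: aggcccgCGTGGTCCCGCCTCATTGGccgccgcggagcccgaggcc
HERPUD1: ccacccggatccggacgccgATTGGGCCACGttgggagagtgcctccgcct
HYOU1: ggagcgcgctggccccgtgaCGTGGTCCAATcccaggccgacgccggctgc

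The element starts 52 bases before the start of the RefSeq transcript in XBP1, 225 in CALR, 86 in PDIA6, 243 in ERO1B, 117 in HERPUD1 and 185 in HYOU1. Of the 9 members with ERSE or ERSE-II, 6 fell (XBP1, CALR, CANX, PDIA6, CRELD2 and HERPUD1), 1 rose (ERO1B) and 2 were not called, with a median log2 fold change of -0.19. Of the 10651 genes of the table with a window 32.4% rose and 33.7% fell. Of the 24 members with a window and neither element, 9 rose and 5 fell, with a median of 0.06. Without TMM factors XBP1, PDIA6 and HERPUD1 stayed called as lower and ERO1B as higher, while CALR, CANX and CRELD2 lost their calls. Under this scaling 17 of the 35 members rose and 8 fell, and 43.0% and 23.1% of all genes. The 9 members with an element were also the more abundant, their median control level being 51.1 RPKM and that of the 24 others 15.7, and the part of level in this contrast was not tested. Among all genes with a row 30 hold such a match, and of the 19 that are neither members nor on the related lists, 4 rose and 7 fell, with a median of -0.03. The 2 related genes with ERSE differed. HSPA5 was not called (0.06; limma, adjusted p = 0.12), and HSP90B1 fell (-0.23; limma, adjusted p = 0.0085). A match gives the letters of the window and not the binding of a factor.

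Level and direction moved together across the table. Among all genes at 50 RPKM or more in the controls, a level chosen after the values were seen, 5.72% rose and 76.3% fell. The 13 members at such levels followed the same pattern, with 9 lower (69.2%), 3 not called and 1 higher, SEC61A1. Of the 22 members under 50 RPKM, 9 rose and 3 fell (40.9% and 13.6%), while 36.0% of all genes under this level rose and 27.8% fell. The RPKM values of the 35 members summed to 2003 ± 26.0 (SD, n = 4) in the controls and 1861 ± 4.36 after SB. The sum was lower by 7.10%, and that over all genes of the table by 12.1%. Both sums carry the TMM factors, 0.957 to 0.969 in the controls and 1.03 to 1.04 after SB, which lower RPKM after SB relative to the controls. No sum was taken without these factors, so a fall in the total transcript of the members is not shown.

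**Figure D2:**
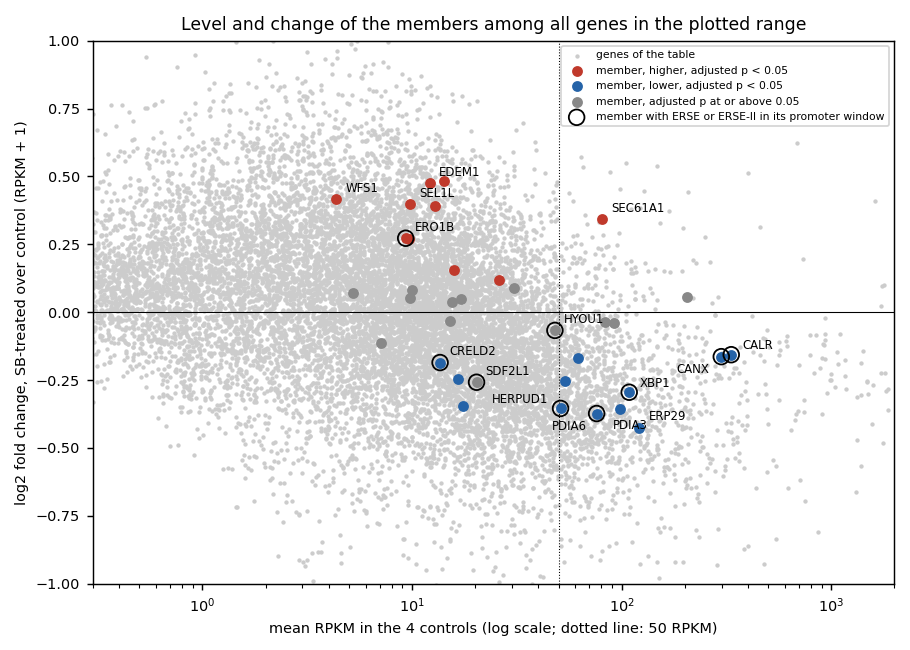
Each point is a gene, placed by its mean RPKM in the 4 controls (log axis) and its log2 fold change of RPKM + 1 after SB. Genes of the table that fall in the plotted range are in grey, and the members are coloured by the limma call. Rings mark the 9 members with ERSE or ERSE-II. To the right of the dotted line at 50 RPKM 9 of 13 members fell, as did 76.3% of all genes at that level, and SEC61A1 was the member there that rose.

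Among the sensors and transcription factors 2 of 6 rose and 1 fell, against 33.0% and 32.6% of all genes. ERN1, ATF6 and ATF6B were not called. ERN1, the kinase and RNase IRE1 (chr17:64039142-64130144), stood at 4.65, 5.53, 4.94 and 5.72 RPKM in control replicates 1 to 4 and at 5.27, 5.77, 5.59 and 5.39 after SB. The groups overlapped, and the log2 fold change was 0.07 ± 0.06 (SE; limma, adjusted p = 0.31), with a 95% confidence interval from -0.06 to 0.20. ATF6, the membrane-bound factor freed by proteolysis (chr1:161766320-161964070), was at 17.0, 15.3, 14.7 and 15.3 RPKM in the controls and at 16.4, 15.7, 16.0 and 15.9 after SB. Control replicate 1 was the highest of the 8, and the log2 fold change was 0.04 ± 0.04 (limma, adjusted p = 0.48). ATF6B, its paralogue, was at 8.87, 10.4, 10.2 and 10.5 RPKM in the controls and 10.8, 10.9, 10.4 and 10.5 after SB. Here control replicate 1 was the lowest, and the log2 fold change of 0.08 ± 0.05 did not pass (limma, adjusted p = 0.18). The exons of ATF6B overlap those of TNXB on the same strand, and how reads in the overlap were counted is not given in the sources used here.

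XBP1, the factor whose mRNA IRE1 splices and whose promoter holds the ERSE printed above, fell. Its RPKM was 112, 106, 110 and 106 in the controls and 87.3, 87.8, 89.0 and 89.2 after SB. All 4 SB-treated cultures lay below all 4 controls, the mean fell by 18.7%, and the log2 fold change was -0.29 ± 0.03 (limma, adjusted p = 3.96e-05; exact permutation p = 0.0286, the smallest that 4 against 4 can give). Gene-level values do not separate spliced from unspliced XBP1 mRNA, so the splicing itself was not measured.

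WFS1, the ER membrane glycoprotein mutated in Wolfram syndrome (chr4:6269850-6303265), rose the most in this group. It stood at 3.58, 4.71, 4.62 and 4.53 RPKM in the controls and at 5.78, 6.51, 6.27 and 5.98 after SB. The groups did not overlap although control replicate 1 was well below the other controls, the mean rose by 40.6%, and the log2 fold change of RPKM + 1, which understates the change of a gene at this level, was 0.42 ± 0.07 (limma, adjusted p = 5.90e-04). CREB3L2, another factor freed from the ER membrane by proteolysis, rose from 26.0 ± 1.24 to 28.2 ± 0.395 RPKM (SD, n = 4 each), a log2 fold change of 0.12 (limma, adjusted p = 0.026). This call was lost when 1 of 4 libraries was left out, control replicate 3 or SB-treated replicate 1, 3 or 4, with an adjusted p of 0.0588, 0.0678, 0.0526 and 0.0563. In the whole group ATF6 joined the genes that rose without control replicate 1, for a count of 3 higher and 1 lower, and without TMM factors ERN1, ATF6 and ATF6B did, for 5 higher and 1 lower. Of all genes 37.6% rose and 37.9% fell without that control, and 43.0% and 23.1% without TMM factors.

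The genes of ER-associated degradation held the 2 largest rises of the 35 members, EDEM3 and EDEM1, with 5 of 10 higher and 2 lower. All genes of the table stood at 33.0% higher and 32.6% lower. EDEM1 and EDEM3 belong to a family that trims mannose from misfolded glycoproteins and so marks them for disposal. EDEM1 (chr3:5187707-5219958) was at 11.9, 12.3, 11.9 and 12.8 RPKM in the controls and at 18.0, 16.7, 17.4 and 17.4 after SB. No SB-treated culture came near the controls, the mean rose by 42.2%, and the log2 fold change was 0.48 ± 0.04 (limma, adjusted p = 5.11e-06). EDEM3 (chr1:184690237-184754858) was at 16.0, 13.7, 13.6 and 13.3 RPKM in the controls and at 21.0, 19.4, 19.6 and 20.5 after SB. Control replicate 1 was the highest control and still lay below every SB-treated culture, and the log2 fold change was 0.48 ± 0.06 (limma, adjusted p = 6.54e-05). The third of the family, EDEM2, was at 9.78 ± 0.697 and 10.2 ± 0.236 RPKM, and its log2 fold change of 0.05 was not called (limma, adjusted p = 0.37).

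SEL1L and SYVN1 are partners, an adaptor and the ubiquitin ligase HRD1 that carries misfolded proteins through the ER membrane for degradation, and both rose. SEL1L (chr14:81471547-81533853) was at 10.1, 9.71, 9.75 and 9.66 RPKM in the controls and at 13.7, 13.1, 13.0 and 13.2 after SB. Its replicates lay close together in both groups and did not overlap, and the log2 fold change was 0.40 ± 0.03 (limma, adjusted p = 6.77e-06). SYVN1 (chr11:65127279-65134519) was at 11.3, 14.1, 13.0 and 13.3 RPKM in the controls and at 17.1, 17.5, 17.2 and 17.0 after SB. The controls were more scattered, with replicate 1 the lowest, and the log2 fold change was 0.39 ± 0.06 (limma, adjusted p = 2.87e-04). SYVN1 shares exon bases with FAU on its own strand and with MRPL49 on the other.

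HERPUD1, the small ER membrane protein that helps assemble the same ligase complex and whose promoter holds the ERSE-II printed above, went the other way. It stood at 51.3, 50.2, 51.9 and 50.9 RPKM in the controls and at 39.4, 39.9, 39.1 and 40.7 after SB (chr16:56932142-56944864). The groups were far apart, the mean fell by 22.2%, and the log2 fold change was -0.35 ± 0.03 (limma, adjusted p = 9.44e-06). OS9 and ERLEC1, lectins that hand trimmed glycoproteins to SEL1L, moved in opposite directions. OS9 fell from 62.0 ± 1.62 to 55.1 ± 0.707 RPKM (log2 fold change -0.17; limma, adjusted p = 0.0015), and ERLEC1 rose from 15.8 ± 1.36 to 17.7 ± 0.268 (0.15; limma, adjusted p = 0.029). OS9 shares exon bases with AGAP2-AS1 on its own strand and with AGAP2 on the other. The ERLEC1 groups overlapped, because control replicate 1 at 17.8 RPKM was as high as the SB-treated cultures, and the call was lost in 6 of the 8 fits that left out 1 library, with adjusted p between 0.0614 and 0.0807, and was kept without control replicate 1 and without SB-treated replicate 3.

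DERL1 and DERL2, members of the channel through which substrates leave the ER, were not called. DERL1 was at 17.1 ± 0.867 and 17.7 ± 0.689 RPKM (limma, adjusted p = 0.35). DERL2 was at 7.08 ± 0.502 and 6.46 ± 0.166 RPKM, with every SB-treated culture below every control and a log2 fold change of -0.11 (limma, adjusted p = 0.0545). Control replicate 1 was the highest for both, and without it DERL1 passed as higher (log2 fold change 0.08; limma, adjusted p = 0.0442) and DERL2 as lower (-0.07; limma, adjusted p = 0.0363). The group then counted 6 higher and 3 lower, and without TMM factors 7 higher and 1 lower, OS9 being lost and EDEM2 and DERL1 gained. Of all genes 37.6% rose and 37.9% fell without control replicate 1, and 43.0% and 23.1% without TMM factors.

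**Figure D3:**
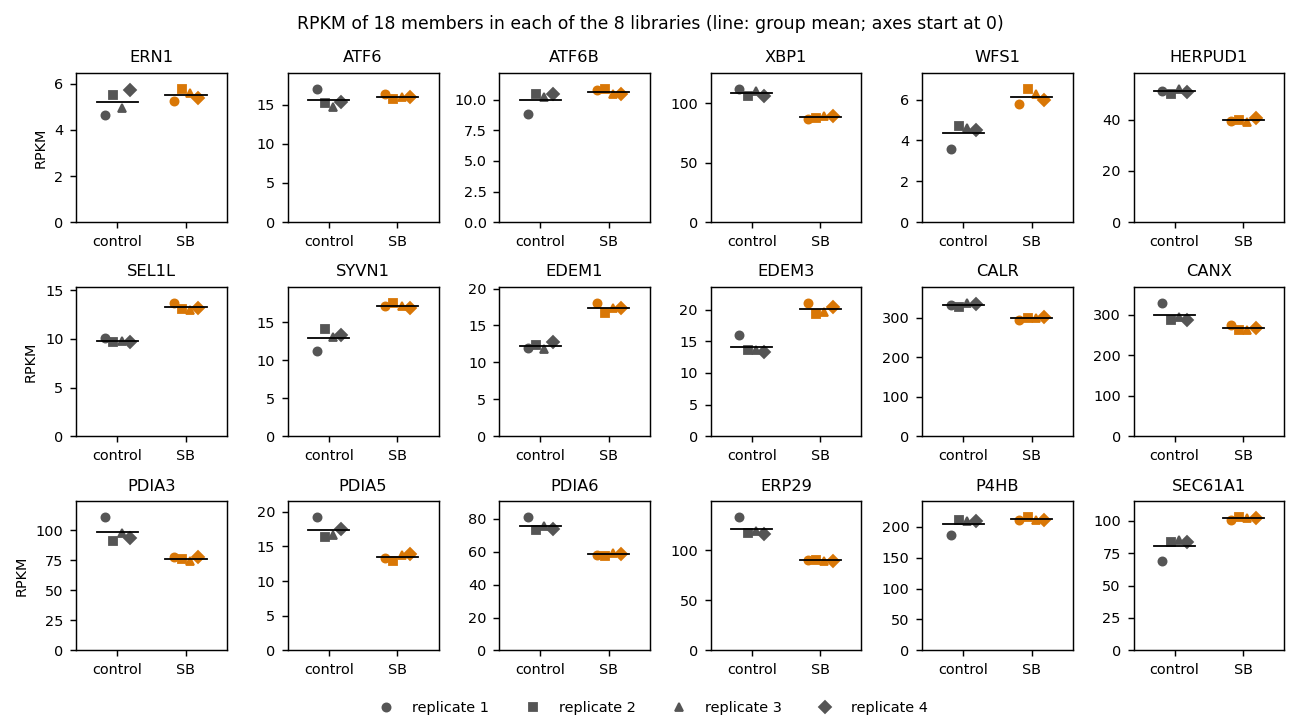
RPKM of 18 members is shown in each of the 8 libraries, with control in grey and SB-treated in orange, a symbol for each replicate number, a line at the group mean and axes that start at 0. The labels do not say that same-numbered cultures were handled together. The groups are apart for EDEM1, SEL1L and HERPUD1, while they overlap for ERN1, ATF6, ATF6B and P4HB, and control replicate 1 (circle) is the lowest control for SYVN1, WFS1, P4HB and SEC61A1.

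In the glycoprotein folding cycle, where lectins hold newly made glycoproteins until they fold, 3 of 5 genes fell and 1 rose. The shares over all genes were 32.6% and 33.0%. CALR, the soluble lectin chaperone calreticulin (chr19:12938609-12944489), was the most abundant member, at 333, 328, 337 and 335 RPKM in the controls and 295, 299, 299 and 302 after SB. The groups did not overlap, and the log2 fold change was -0.16 ± 0.03 (limma, adjusted p = 0.0012). CANX, its membrane-bound counterpart calnexin (chr5:179678656-179731641), was at 328, 286, 295 and 286.0 RPKM in the controls and at 274, 261, 263 and 267 after SB. The highest SB-treated culture was below the lowest control, and the log2 fold change was -0.16 ± 0.05 (limma, adjusted p = 0.013). PDIA3, the disulphide isomerase ERp57 that works with both lectins (chr15:43746438-43773278), was at 111, 90.5, 97.6 and 93.4 RPKM in the controls and at 77.2, 75.9, 74.0 and 77.2 after SB. Control replicate 1 was the highest, the groups did not overlap, and the log2 fold change was -0.36 ± 0.06 (limma, adjusted p = 4.74e-04). All 3 genes thus fell in relation to the typical gene, and without TMM factors CALR and CANX were no longer called, at -0.05 and -0.06 on the log2 scale.

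The glucosyltransferases UGGT1 and UGGT2 test whether a glycoprotein has folded and send it back to the lectins if not. UGGT1 was at 15.2 ± 0.437 RPKM in the controls and 14.8 ± 0.353 after SB and was not called (log2 fold change -0.03; limma, adjusted p = 0.41). UGGT2 rose from 9.62 ± 0.823 to 11.8 ± 0.715 RPKM without overlap of the groups (0.27; limma, adjusted p = 0.0031).

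Among the 8 genes of oxidative folding, which place and rearrange disulphide bonds, 4 fell and 1 rose, against 32.6% and 33.0% of all genes. ERP29, a thioredoxin-fold protein that lacks the active cysteine pair of the isomerases (chr12:112013426-112023449), fell the most of all members. It was at 133, 117, 120 and 116 RPKM in the controls and at 90.7, 90.3, 89.9 and 89.8 after SB. The SB-treated cultures lay in a narrow band well below the more scattered controls, the mean fell by 25.8%, and the log2 fold change was -0.42 ± 0.05 (limma, adjusted p = 3.23e-05). PDIA6, the isomerase P5 whose promoter holds the ERSE printed above (chr2:10783391-10837712), was at 81.0, 73.2, 75.8 and 73.8 RPKM in the controls and at 58.2, 57.3, 59.3 and 58.6 after SB. All SB-treated values were far below all controls, and the log2 fold change was -0.37 ± 0.04 (limma, adjusted p = 2.80e-05). PDIA5, a less studied isomerase of the family (chr3:123067025-123162104), was at 19.2, 16.3, 16.6 and 17.5 RPKM in the controls and at 13.4, 12.9, 13.7 and 13.9 after SB. Its groups did not overlap either, and the log2 fold change was -0.35 ± 0.05 (limma, adjusted p = 2.74e-04). PDIA5 shares exon bases with SEC22A on the same strand.

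P4HB, the classical protein disulphide isomerase PDI and the third most abundant member (chr17:81843166-81860535), was at 186, 210.5, 209.6 and 210.0 RPKM in the controls and at 210.3, 215, 211 and 212 after SB. All but control replicate 1 lay in a narrow band, and the log2 fold change was 0.06 ± 0.04 (limma, adjusted p = 0.28). PDIA4 was likewise not called, at 91.8 ± 2.11 and 89.3 ± 1.63 RPKM (-0.04; limma, adjusted p = 0.33). ERP44, which retains secretory proteins and oxidases in the early secretory pathway, fell from 16.6 ± 1.11 to 13.8 ± 0.276 RPKM (-0.25; limma, adjusted p = 0.0011).

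The oxidases ERO1A and ERO1B, which pass electrons from the isomerases to oxygen, stood at 30.7 ± 2.80 and 9.33 ± 1.22 RPKM in the controls and at 32.6 ± 0.984 and 11.4 ± 0.379 after SB. ERO1B was called higher (0.27; limma, adjusted p = 0.0081) although control replicate 1 at 11.1 RPKM overlapped the SB-treated cultures, and ERO1A was not called (0.09; limma, adjusted p = 0.21). Without control replicate 1 ERO1A passed (0.15; limma, adjusted p = 0.0017). Without TMM factors ERO1A and P4HB passed as higher, which gave 3 higher and 4 lower in this group. Of all genes 43.0% rose and 23.1% fell under that scaling.

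The chaperones and small stress-induced proteins all had lower means after SB, and 2 of 4 were called. Over all genes 32.6% were called lower. MANF, a secreted survival factor kept in the ER of resting cells, fell from 53.5 ± 1.85 to 44.7 ± 1.71 RPKM (-0.25; limma, adjusted p = 4.42e-04), with every SB-treated culture below every control. CRELD2 fell from 13.6 ± 1.06 to 11.8 ± 0.632 RPKM (-0.19; limma, adjusted p = 0.019) with overlapping groups. This call was lost in 5 of the 8 fits that left out 1 library, with adjusted p between 0.0507 and 0.0569, and without TMM factors (limma, adjusted p = 0.23), and its exons overlap those of ALG12 on the opposite strand.

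HYOU1, the large chaperone GRP170 that also releases nucleotide from BiP, was at 48.0 ± 3.07 and 45.7 ± 0.840 RPKM and was not called (-0.07; limma, adjusted p = 0.24). SDF2L1, part of a chaperone complex with a co-chaperone of BiP, had the largest standard error of the members on the log2 scale (0.11), at 20.3 ± 3.22 and 16.7 ± 1.74 RPKM (-0.26; limma, adjusted p = 0.0572). Both were called lower without control replicate 1, the lowest control for each, at -0.11 for HYOU1 (limma, adjusted p = 0.0026) and -0.34 for SDF2L1 (limma, adjusted p = 0.00995), which made the count 4 of 4. In that fit 37.9% of all genes were called lower. Without control replicate 3, its highest control, SDF2L1 stood at -0.17, and without SB-treated replicate 1, its lowest culture, at -0.18 (limma, adjusted p = 0.15), uncalled in both. Without TMM factors MANF was the 1 gene of this group called, as lower, and HYOU1 stood at 0.04. Of all genes 23.1% were called lower under that scaling.

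SEC61A1 and SEC61B are the alpha and beta subunits of the translocon, the channel by which nascent chains enter the ER. SEC61A1 (chr3:128051641-128071683) was at 69.1, 83.9, 85.2 and 83.7 RPKM in the controls and at 101, 103, 102 and 102 after SB. All SB-treated cultures were above all controls, control replicate 1 being the lowest, and the log2 fold change was 0.34 ± 0.06 (limma, adjusted p = 9.92e-04), or 0.27 without that control. Its exons overlap those of RUVBL1 on the opposite strand. SEC61B was at 83.7 ± 2.1 and 81.6 ± 3.87 RPKM and was not called (-0.04; limma, adjusted p = 0.45). The 2 subunits had like levels in the controls and stood at 102 and 81.6 RPKM after SB.

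**Figure D4:**
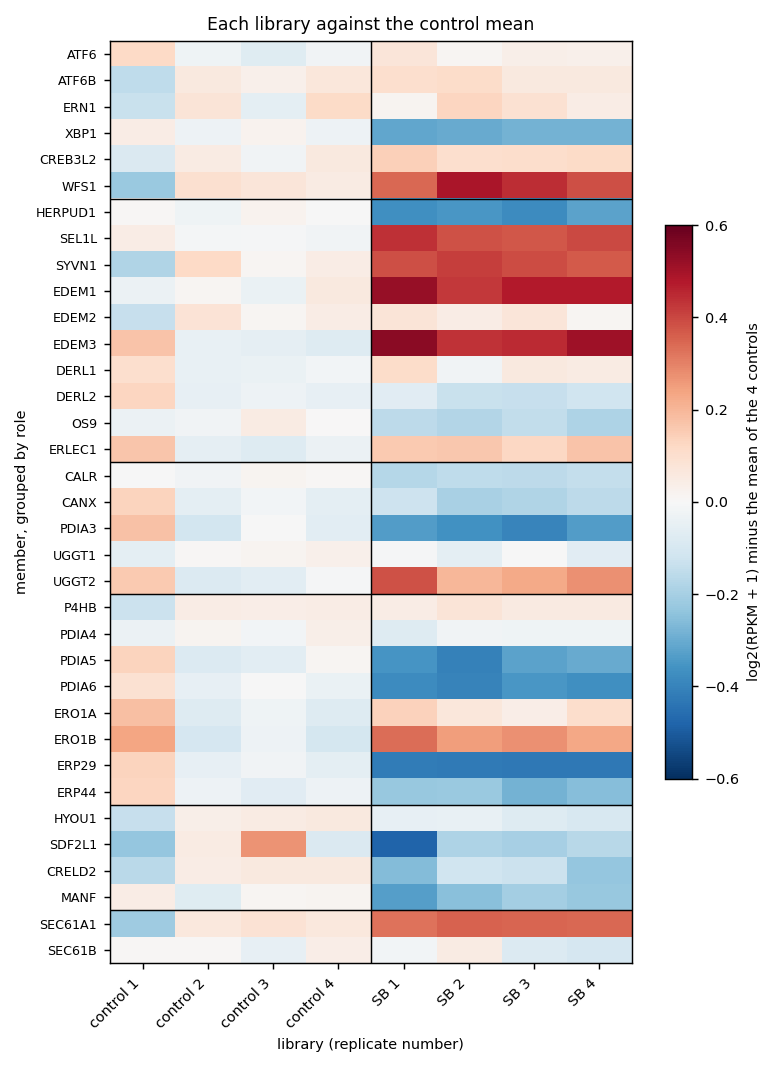
Each cell is log2(RPKM + 1) of a member in a library minus the mean of the 4 controls, with members in rows grouped by role and libraries in columns. For the called members the 4 SB-treated columns lie on the same side of the control mean, and the column of control 1 stands apart from the other controls, above them for 17 members and below them for 14.

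The rest of the pathway was followed in 60 related ER genes, all with a row, of which 14 rose (23.3%) and 21 fell (35%), against 33.0% and 32.6% of all genes. Without TMM factors the counts were 27 and 9, against 43.0% and 23.1% of all genes. Without control replicate 1 the rises were 24 and the falls 22, against 37.6% and 37.9%. HSPA5, the central chaperone BiP and the usual reporter of the unfolded protein response, was at 128, 124, 128 and 123 RPKM in the controls and at 133, 130.5, 131 and 131 after SB. All SB-treated cultures were above the controls, by 4.24% in the mean, and the log2 fold change was 0.06 ± 0.03 (limma, adjusted p = 0.12), called without control replicate 1 (0.07; limma, adjusted p = 0.029) and without TMM factors (0.16; limma, adjusted p = 8.91e-04). Of the 9 genes for BiP, GRP94 and their co-chaperones 4 fell and 5 were not called, HSPA5 among them. Without control replicate 1 the same list counted 3 higher and 4 lower, and without TMM factors 3 higher, and none of its 4 falls passed.

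Of the 6 genes of the PERK branch 5 rose and 1 was not called, against 33.0% of all genes that rose and 32.6% that fell. The 5 rises stood without TMM factors, where 43.0% of all genes rose. They also stood without control replicate 1, where 37.6% of all genes rose and DDIT3 passed as lower. EIF2AK3, the kinase PERK itself, was at 3.97, 3.85, 3.20 and 3.65 RPKM in the controls and at 5.08, 5.09, 5.04 and 4.96 after SB. The groups did not overlap, the mean rose by 37.4%, and the log2 fold change was 0.37 ± 0.05 (limma, adjusted p = 1.61e-04). PPP1R15B, the regulatory subunit of the phosphatase that reverses the action of PERK, was at 31.1, 30.7, 29.7 and 31.3 RPKM in the controls and at 45.8, 45.2, 43.8 and 45.2 after SB. Its log2 fold change of 0.54 ± 0.03 (limma, adjusted p = 1.25e-06) exceeded that of every member. ATF4, PPP1R15A and TRIB3 also rose, by 0.28, 0.43 and 0.47 on the log2 scale, while DDIT3, the factor CHOP, was at 38.1 ± 2.39 and 37.3 ± 0.880 RPKM (-0.03; limma, adjusted p = 0.64). ATF4 and its targets answer to other kinases besides PERK.

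Other genes of folding and protein entry moved both ways. Of 12 further genes of folding and oxidation 6 fell and 2 rose, and of 13 of translocation and signal peptidase 8 fell and 2 rose. The shares over all genes were 32.6% lower and 33.0% higher. PRDX4, the ER peroxiredoxin, was at 223, 197, 207 and 205 RPKM in the controls and at 141, 142, 140.4 and 142 after SB. SPCS1, a signal peptidase subunit, was at 91.6, 84.7, 88.1 and 82.5 RPKM in the controls and at 58.1, 59.0, 59.0 and 60.0 after SB. In both the groups were far apart, with log2 fold changes of -0.55 ± 0.04 for each gene (limma, adjusted p = 3.65e-06 for PRDX4 and 2.92e-06 for SPCS1). Without TMM factors the counts were 4 lower and 5 higher for folding and oxidation and 3 of each for translocation. Under that scaling 23.1% of all genes fell and 43.0% rose. Of 15 further degradation genes 4 rose (26.7%) and 2 fell (13.3%). The rises were 8 without control replicate 1 and 9 without TMM factors, with 2 and 1 falls. Of all genes 37.6% rose and 37.9% fell without that control, and 43.0% and 23.1% without TMM factors. DERL3 of this list, a relative of DERL1 and DERL2 singled out after its values were seen, rose from 0.579 ± 0.114 to 1.23 ± 0.0804 RPKM, 112% in the mean, though at this low level by only 0.50 on the log2 scale of RPKM + 1 (limma, adjusted p = 3.66e-05). Of 5 proteases and other sensors 1 rose, the site-1 protease MBTPS1, and 1 fell, the site-2 protease MBTPS2.

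**Figure D5:**
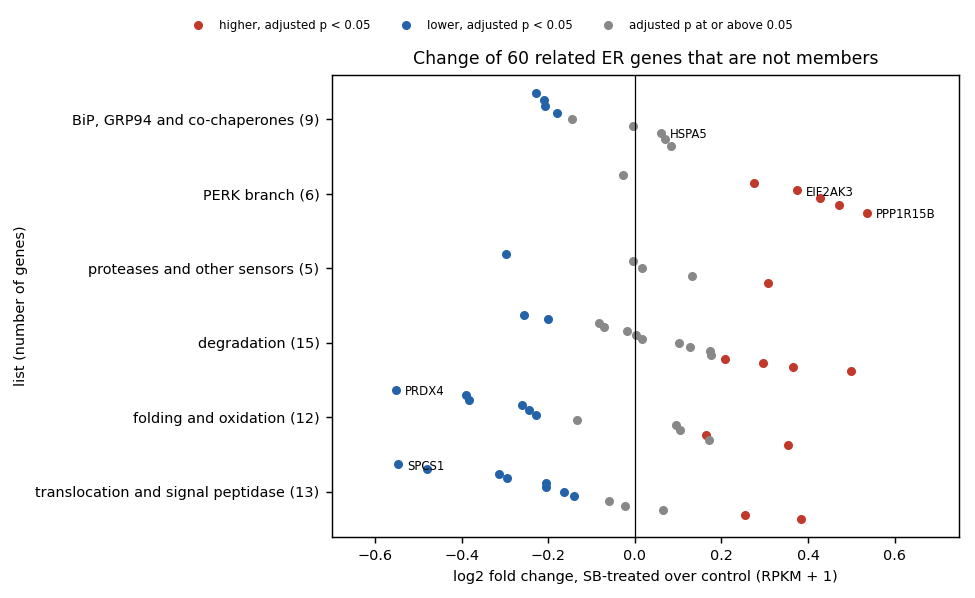
Each point is the log2 fold change of RPKM + 1 of 1 of 60 related ER genes, grouped by list and coloured by the limma call. The PERK branch has 5 of 6 genes to the right of 0 and called, with DDIT3 uncalled. Of the 13 genes of translocation and signal peptidase 8 were called lower, a count that is 3 without TMM factors. Over all genes 33.0% were called higher and 32.6% lower, and 43.0% and 23.1% without these factors.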

How the data were processed

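Strand-specific total RNA libraries were sequenced by the authors as single reads, mapped to hg38 with TopHat2 2.1.0 and counted per gene with featureCounts 1.5.0, per the labels and the study's methods. The strand setting of the counting is not given in the sources used here. The authors kept genes that reached a CPM over 1 in 2 or more samples and deposited RPKM per gene and library, scaled with TMM factors in edgeR 3.16.5. The deposited log2 fold change, mean log2 CPM, p-value and FDR columns are the authors' own comparison and were not used. Columns of per-sample values left unused numbered 0.

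The RPKM values were compared between 4 SB-treated and 4 control replicates with limma 3.58.1 in R 4.3.3 (lmFit and eBayes) on log2(RPKM + 1), and p-values were adjusted over the 14526 genes by the Benjamini-Hochberg method and called at 0.05. Fold changes are therefore on the log2(RPKM + 1) scale, which understates the change of low genes. Exact permutation tests of 4 against 4 were two-sided (scipy 1.17.1, Python 3.11.15). Whole reads were recovered from the RPKM steps for 100% of genes, to within 0.02 of a whole number. A gene whose reads and length share a common factor is recovered as a fraction of its reads, so the totals are slightly low.

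Members and lists were chosen with earlier results of these data known. Values in all 8 samples are given for the 12 called members with the largest change, for ERN1, XBP1, ATF6, ATF6B, HERPUD1, SEL1L, CALR, CANX, P4HB and PDIA3, and for HSPA5, EIF2AK3 and the 3 called related genes with the largest change, both on the log2(RPKM + 1) scale. Gene positions and promoter windows are from RefSeq (GRCh38.p14) and exon overlaps from GENCODE release 44. Of the 35 members, 11 share exon bases with another gene of the table. ChIP-seq data and protein sequences were not analysed here. Alternatives were a pseudocount of 0.1, RPKM of at least 1 in at least 4 samples, median-of-ratios scaling, library sizes without TMM factors, an intensity trend in eBayes, voom on reads recovered from the RPKM, a block for the replicate number, and fits that omitted 1 library each.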

Additional observations from a re-analysis of the deposited data

Results flagged for a closer look

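In 10 of 70 groups of 4 values (35 members in each of the control and SB-treated groups), 1 library lay so far from the other 3 that its gap, divided by the range of the group, passed Dixon's 95% critical value. Chance alone gives about 3.5 such groups. In 8 of the 10 the library was control replicate 1, which held such a value for 22.9% of the members and 14.6% of all genes. It was the lowest control for ATF6B (gap over range 0.844), WFS1 (0.856), P4HB (0.965), HYOU1 (0.873), CRELD2 (0.936) and SEC61A1 (0.916), and the highest for EDEM3 (0.865) and DERL2 (0.875). SB-treated replicate 1 was the lowest of its group for PDIA4 (0.873) and SDF2L1 (0.902). Of these genes, WFS1, EDEM3, CRELD2 and SEC61A1 were called with control replicate 1 and without it, and HYOU1, DERL2 and SDF2L1, not called over all 8 libraries, were called without it. Without SB-treated replicate 1, the library far from its group for SDF2L1, that gene stood at -0.18 on the log2 scale (limma, adjusted p = 0.15).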

How the results depend on the processing

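No member of the 35 changed direction or call with a pseudocount of 0.1, with RPKM of at least 1 in at least 4 samples, with median-of-ratios scaling, with an intensity trend and with voom on the recovered reads. Without TMM factors 17 members were higher, the members' median log2 fold change was 0.0666, and 27 related genes were higher and 9 lower. Under this scaling 7 members gained a call and 4 lost one, and UGGT1 (0.065), PDIA4 (0.066), HYOU1 (0.036) and SEC61B (0.07) reversed, the median log2 ratio of all genes being higher by construction. Leaving out 1 library at a time gave 8 to 13 members higher and 11 to 15 lower, medians from -0.0355 to -0.01599, 14 to 24 related genes higher and 19 to 22 lower, and 4311 to 5459 of all genes higher and 4285 to 5511 lower. The high end of each count came without control replicate 1. With the replicate number as a block, 10 members were higher and 14 lower, DERL2 (limma, adjusted p = 0.0342) and SDF2L1 (0.00797) being gained, and 4885 of all genes were higher and 4894 lower. Deviations from the group means of same-numbered libraries correlated, across genes, at 0.38, 0.327, 0.173 and -0.16 for numbers 1 to 4. The mean was 0.18 for the same number and -0.0541 for other numbers. Control replicates 1 and 2 each correlated best with the SB-treated library of the same number. Control replicates 3 and 4 correlated best with SB-treated replicate 2. Pairing by number is thus neither shown nor excluded, and the calls gained with the block, DERL2 and SDF2L1, depend on it. Depth limits the least covered members most, SDF2L1 with 475 reads in 1 library being the lowest.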
